A study of Mus musculus with 18 samples.

Results

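The zinc finger genes described here are the 222 genes of the deposited annotation that carry a numbered Zfp name and lie on mouse chromosomes 5 to 11 or 17, out of 35857 annotated genes. Zfp787 and Zfp264 were left out by the rule that chose them, which used names and positions and no H3K9me3 value, though earlier results of these data were known. The study lists Zfp787 among imprinted loci where H3K9me3 fell in Uhrf1 knockout cells, so the counts of the 222 genes below leave out that locus. The study followed the silencing mark H3K9me3, trimethylation of lysine 9 of histone H3, in E14TG2a mouse embryonic stem cells (mESCs), a line kept undifferentiated in serum with leukaemia inhibitory factor (LIF). Its aim was to find what is needed to establish and to keep heterochromatin. Peak lists from 6 H3K9me3 ChIP-seq libraries were compared, 2 from wild-type cells, 2 from Uhrf1 knockout (KO) cells and 2 from Dhx9 KO cells. The groups are labelled WT, UHRF1KO and DHX9KO. The Uhrf1 KO was grown from single edited cells, so clone and genotype cannot be told apart there. It was made in cells that carry an inducible reporter and a TetR-KRAB repressor. The study's figure legend for H3K9me3 at imprinted loci names the wild-type cells as reporter cells too. How the Dhx9 KO cells were made is not given in the sources used here.

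Numbered Zfp genes mostly encode C2H2 zinc finger proteins, in which each finger is a short loop held by a zinc ion between a pair of cysteines and a pair of histidines and reads a few bases of DNA. Many of them also carry a KRAB box, which recruits the scaffold protein TRIM28 and through it the H3K9 methyltransferase SETDB1 to transposable elements and imprinted loci. The genes themselves are known to carry H3K9me3, above all on the last exon that encodes the finger array. UHRF1 binds hemimethylated CpG sites and H3K9me3 and brings in the DNA methyltransferase DNMT1, and DHX9 is an RNA and DNA helicase.

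Of the 222 genes, 221 had a coding sequence in the annotation, and 120 of these held a KRAB box by a fixed amino acid pattern in the representative transcript, a test that can miss divergent boxes. C2H2 fingers were found in 213 genes, with a median of 11 fingers over all genes and a maximum of 33. All fingers lay within the last exon in 182 of the 213 (85.4%). Chromosome 7 held 86 of the genes and chromosome 17 held 38, of which 32 had the KRAB pattern. Genes with the pattern had a median of 12 fingers, a last exon GC content of 41.4% and 12 CpG sites in the 300 bases around the start, against 8 fingers, 49.2% and 18.5 CpG sites in the 101 genes without it.

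The repeated unit of the finger array is shown by 2 neighbouring fingers from the middle of the array of 4 genes. They are read from the coding strand of the reference (mm10, GRCm38), 5′ to 3′. The capitals mark the codons of the cysteines and histidines that hold the zinc. Zfp420 (chr7:29875119-29875265, plus strand) had the strongest last exon, by the lower wild-type log2 fold, of those in peaks in all 6 lists, Zfp13 (chr17:23576396-23576542, minus strand) the strongest that was in no Uhrf1 KO list, Zfp146 (chr7:30162082-30162228, minus strand) the strongest that was in no Dhx9 KO list, and Zfp964 (chr8:69663658-69663804, plus strand) was the only one of these genes in peaks in both lists of each knockout and in neither wild-type list.
Zfp420: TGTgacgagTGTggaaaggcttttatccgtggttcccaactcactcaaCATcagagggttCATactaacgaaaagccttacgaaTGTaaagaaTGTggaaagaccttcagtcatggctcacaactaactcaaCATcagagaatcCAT
Zfp13: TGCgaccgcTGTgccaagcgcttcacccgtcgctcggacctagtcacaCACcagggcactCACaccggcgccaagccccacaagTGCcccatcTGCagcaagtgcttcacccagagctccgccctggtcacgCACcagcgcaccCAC
Zfp146: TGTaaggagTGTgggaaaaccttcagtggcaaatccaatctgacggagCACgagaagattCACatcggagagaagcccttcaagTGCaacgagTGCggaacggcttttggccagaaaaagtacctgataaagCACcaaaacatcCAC
Zfp964: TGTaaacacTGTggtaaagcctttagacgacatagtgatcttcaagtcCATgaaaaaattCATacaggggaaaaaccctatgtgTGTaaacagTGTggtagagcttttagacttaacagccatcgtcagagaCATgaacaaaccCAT
Each stretch was 147 bases long. The Zfp13 stretch held 11 CpG sites, the Zfp146 stretch 6, the Zfp420 stretch 4 and the Zfp964 stretch 2.

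The lists held 116156 and 119982 peaks in wild-type, 70195 and 93916 in Uhrf1 KO and 125453 and 120695 in Dhx9 KO cells, with 19543177 to 20875020 ChIP reads in peaks in the 4 libraries that were not Uhrf1 KO, 6703081 in Uhrf1 KO library 1 and 16966576 in Uhrf1 KO library 2. Where peaks of 2 lists had the same limits, the background read counts were equal in 100% of them among the 4 lists of the other groups and between both Uhrf1 KO lists, but in 1.85 to 4.29% between the Uhrf1 KO lists and the others, so the Uhrf1 KO lists were called against another background. The genotype and this other background cannot be told apart where Uhrf1 KO is compared, and library 1 of that group was also the shallowest. No 2 libraries were copies of each other, since at most 2.63% of such peaks had the same ChIP count. With 2 libraries against 2 no exact two-sided permutation test can give a p below 0.333, so presence and absence of peaks are described without a test, and tests were made on read counts across all regions of the genome. Background reads per base of peak on chromosome 8 were 1.07 to 1.37 times those on the other autosomes, and log2 folds of the 24 genes there are read with that in view.

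H3K9me3 peaks lay within or near most of these genes, and over the last exon of 22.5% to 25.7% of them in wild-type cells, while their start sites were rarely covered. A peak overlapped the transcripts plus 5 kb on each side (the gene window) of 165 and 160 of the 222 genes in the wild-type libraries (74.3% and 72.1%), of 103 and 125 in Uhrf1 KO (46.4% and 56.3%) and of 141 and 143 in Dhx9 KO (63.5% and 64.4%). For all 21880 genes compared, which are the protein-coding genes and the noncoding Zfp783, the shares were 62.8% and 62.5%, 38.3% and 50.6%, and 64.2% and 57.6%. At least 50% of the last exon was in peaks in 57 and 50 of the genes in the wild-type libraries (25.7% and 22.5%), in 35 and 33 of them in Uhrf1 KO (15.8% and 14.9%) and 44 and 46 in Dhx9 KO cells (19.8% and 20.7%). The shares over all genes were 21.1% and 20.1% in wild-type, 4.93% and 12.3% in Uhrf1 KO and 20.2% and 14.2% in Dhx9 KO cells. The start site lay in a peak in 11 and 12 of the zinc finger genes in wild-type cells (4.95% and 5.41%), against 12.9% and 12.6% of all genes. In 36 of the 222 (16.2%) no list had a peak in the gene window, against 24.3% of all genes.

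**Figure D1:**
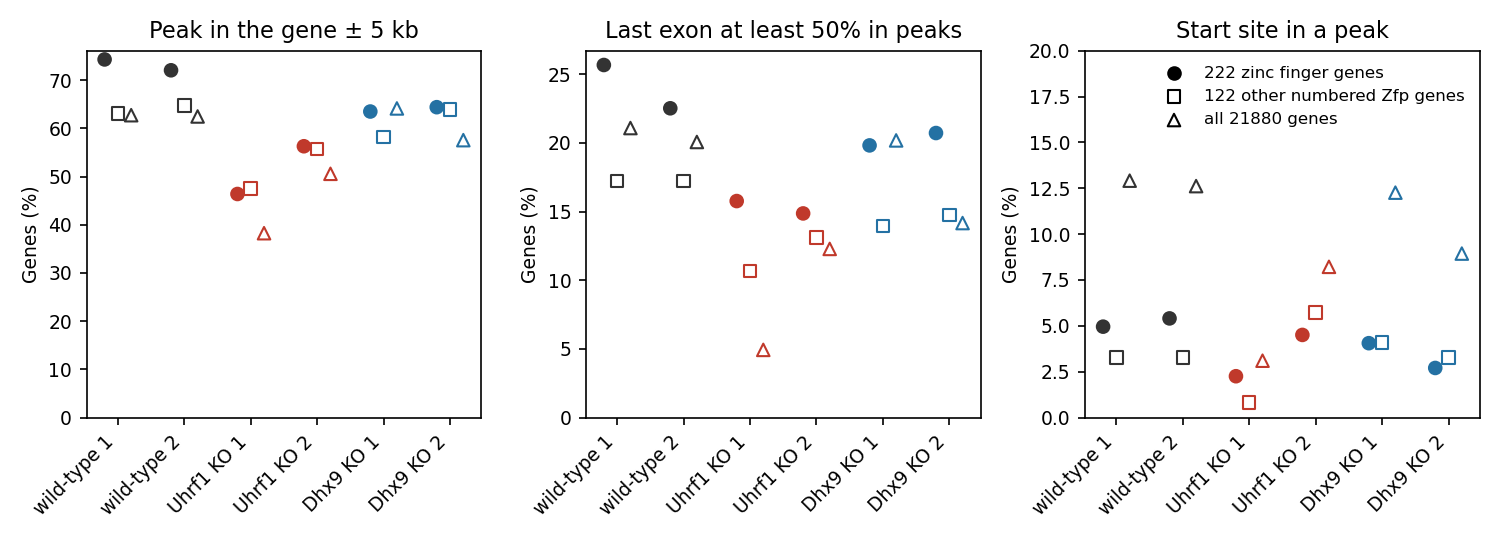
Percent of genes with a peak in the gene window (left), with at least 50% of the last exon in peaks (middle) and with the start site in a peak (right), for each library on the horizontal axis. Filled circles are the 222 zinc finger genes, open squares the 122 other numbered Zfp genes and open triangles all 21880 genes; in the right panel the wild-type circles sit at 4.95% and 5.41% and the wild-type triangles at 12.9% and 12.6%.

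Within the gene, the mark in wild-type cells was low at the start and higher near the 3′ end, but the flanks were also covered. The strongest peak of the window lay in the flank for 73 and 74 genes in the wild-type libraries, and over the last exon for 42 and 33. At 5 kb upstream the share in peaks was 17.8% and 15.9% for genes with the KRAB pattern and 17.5% and 16.3% for those without it. In genes without the KRAB pattern, the share of bases in peaks was 4.27% and 4.46% in the first 10% of the gene in the wild-type libraries and reached 29.8% and 26.5% at 85 to 90% of the gene length. In genes with the pattern it was 3.42% and 3.71% in the first 10% and reached 24.6% and 22.8% at 75 to 80%. Over the last 25% of the gene, genes without the pattern had 25.8% and 23.2% of bases in peaks in wild-type, 9.63% and 14.7% in Uhrf1 KO and 20.7% and 16.8% in Dhx9 KO cells. Genes with the pattern had 18.9% and 17.8% in wild-type, 15.9% and 11.9% in Uhrf1 KO and 10.7% and 18.4% in Dhx9 KO cells. In Dhx9 KO library 1 their highest bin, 14.1%, ended at 40% of the gene and not near the 3′ end. Both Uhrf1 KO libraries lay below both wild-type libraries in each class, and so they did over all genes, with 4.84% and 11.6% in Uhrf1 KO and 19.2% and 13.8% in Dhx9 KO cells. All genes together showed a flatter course in wild-type cells, from 14.4% and 13.7% in the first 10% to 19.8% and 19.0% in the last 25%.

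**Figure D2:**
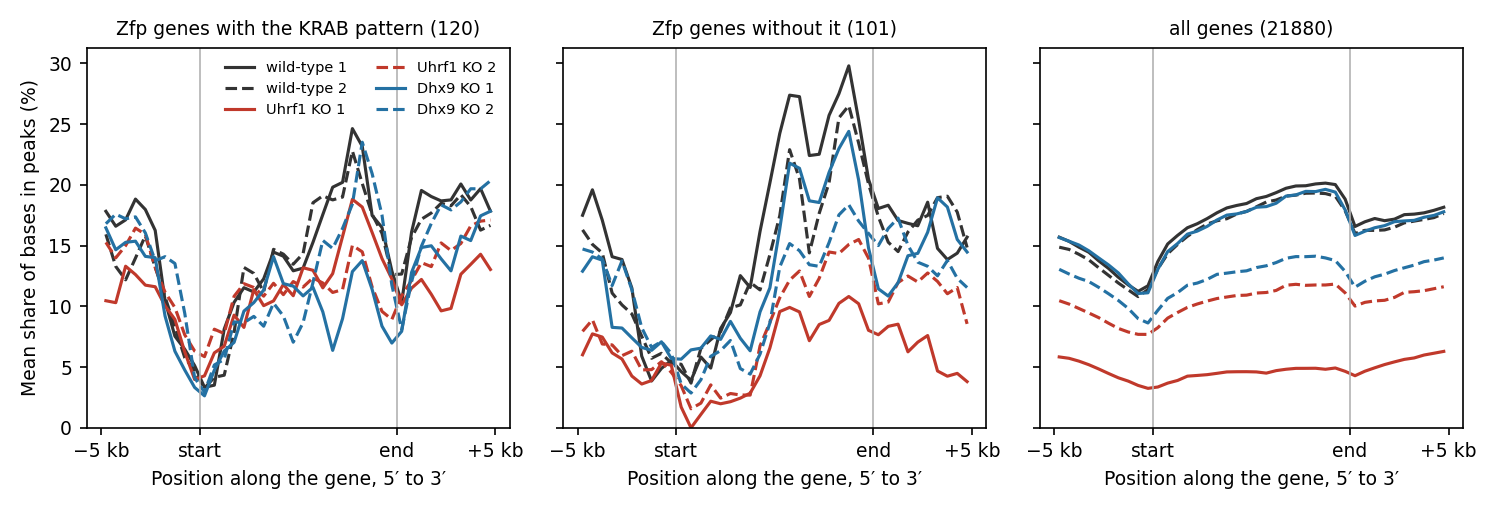
Mean percent of bases in peaks along genes, with 5 kb on each side in 500-base bins and the gene scaled to 20 bins, for genes with the KRAB pattern, genes without it and all genes. Lines are libraries (solid, library 1; dashed, library 2); in both zinc finger classes the wild-type lines average 3.42% to 4.46% over the first 10% of the gene and reach 22.8% to 29.8% at their highest bin.

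A last exon is called marked, or in a list, where at least 50% of its bases lay in peaks. In wild-type cells 40 of the 222 genes (18.0%) had the last exon in peaks in both libraries, against 3447 of all 21880 genes (15.8%), 27 in 1 library and 155 in neither. None of the 33 genes with fewer than 5 fingers was among the 40, while 22 of 90 genes with 10 to 14 fingers (24.4%) and 10 of 44 with 15 or more (22.7%) were. Of the 120 genes with the KRAB pattern 18 were included (15.0%), and of the 101 without it 22 (21.8%). Chromosome 7 contributed 19 of the 40, whereas chromosome 17 contributed 2 of its 38 genes (5.26%). Genes with no other numbered Zfp gene within 250 kb had a marked last exon in 6 of 66 cases (9.09%), genes with 1 to 3 such neighbours in 15 of 58 (25.9%) and genes with 4 or more in 19 of 98 (19.4%). The peak over a marked last exon had a median log2 fold over background of 1.12 and 1.09 in wild-type cells, against 0.88 and 0.87 for all genes, and a median of 49.9 and 49.2 ChIP reads per kb, against 41.7 and 40.0. Reads per kb are not scaled for depth, and their median over all peaks of a list was 24.2 in Uhrf1 KO library 1 and at least 40.7 in the other 5.

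By the lower log2 fold of the wild-type libraries, the strongest last exon was that of Zfp420 on chromosome 7, with 19 fingers. Its peak held 106 and 109 ChIP reads per kb in wild-type, 35.5 and 107 in Uhrf1 KO and 52.5 and 79.4 in Dhx9 KO cells, and 51% to 74% of the exon was covered. Over the region chr7:29874201-29876000 the Dhx9 KO against wild-type difference in read counts was −0.71 on the log2 scale (SE 0.19), which had an edgeR quasi-likelihood p of 0.0019 but an adjusted p of 0.12 over all 4721 regions. The Uhrf1 KO difference over chr7:29874201-29876200 was −0.42 (SE 0.18), with an edgeR quasi-likelihood p of 0.036 and an adjusted p of 0.16. Over all peaks on the last exon the differences were smaller. They were −0.26 (SE 0.17, adjusted p = 0.68, edgeR) in Dhx9 KO and −0.16 (SE 0.17, adjusted p = 0.59, edgeR) in Uhrf1 KO.

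Zfp629 (chromosome 7, 19 fingers, last exon of 5528 bases) had its whole last exon in peaks in wild-type and Dhx9 KO cells. The peak held 117 and 115 reads per kb in wild-type and 74.6 and 117 in Dhx9 KO cells. In Uhrf1 KO library 1 no base of the exon was in a peak, and in library 2 68% was, in a peak with 31.9 reads per kb. The share of the exon in peaks was thus lower in both Uhrf1 KO libraries than in the other 4.

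Zfp13 on chromosome 17, a gene with the KRAB pattern and 8 fingers, had its whole last exon in a peak in wild-type cells, with 112 and 89.2 reads per kb. It had no peak in the gene window in either Uhrf1 KO library. In Dhx9 KO cells the last exon stayed in a peak in full, with 79.4 and 41.9 reads per kb. The Dhx9 KO difference over the peaks on this last exon, scaled for depth and called length, was −0.74 on the log2 scale (SE 0.26), with an adjusted p of 0.43 by edgeR.

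Zfp180, Zfp605, Zfp575 and Zfp658 were in peaks in all 6 libraries. Zfp180 held 115 and 91.9 reads per kb in wild-type, 57.5 and 132 in Uhrf1 KO and 64.6 and 118 in Dhx9 KO cells, with the whole exon covered throughout. Zfp605 held 55.7 and 56.5, then 48.8 and 85.8, then 52.6 and 68.0 reads per kb in the same order. Zfp575 held 91.7 and 81.2 reads per kb in wild-type, 64.1 and 139 in Uhrf1 KO and 88.9 and 113 in Dhx9 KO cells. The Uhrf1 KO differences were taken over the whole peaks on these last exons, scaled for depth and called length. They were 0.30 (SE 0.17) for Zfp180, 0.74 (SE 0.16) for Zfp605, 0.67 (SE 0.15) for Zfp575 and 0.50 (SE 0.16) for Zfp658 on the log2 scale. The adjusted p was 0.33, 0.11, 0.11 and 0.16 by edgeR. These values compare read density inside peaks, not peak length. The Zfp180 peaks took up 13400 and 14200 bases in wild-type but 6000 and 8400 in Uhrf1 KO cells. Those of Zfp605 took up 7400 in each wild-type library and 8200 and 8400 in Uhrf1 KO cells.

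Zfp11 held 83.7 and 90.4 reads per kb in wild-type, 27.4 and 61.7 in Uhrf1 KO and 59.3 and 76.4 in Dhx9 KO cells, and its Uhrf1 KO difference scaled for depth was −0.34 on the log2 scale (SE 0.16, adjusted p = 0.26, edgeR). Zfp110, which encodes a protein that binds the p75 neurotrophin receptor, held 65.5 and 77.9, 22.7 and 48.1, and 52.8 and 60.0 reads per kb in the same order. For Zfp110 the Uhrf1 KO difference over the peaks on the last exon, scaled in the same way, was −0.58 on the log2 scale (SE 0.17), with an adjusted p of 0.15 by edgeR. Zfp637 had its last exon in peaks in wild-type, in both Dhx9 KO libraries and in Uhrf1 KO library 2, with 36.3 reads per kb there against 68.5 and 55.7 in wild-type, and no peak in Uhrf1 KO library 1.

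**Figure D3:**
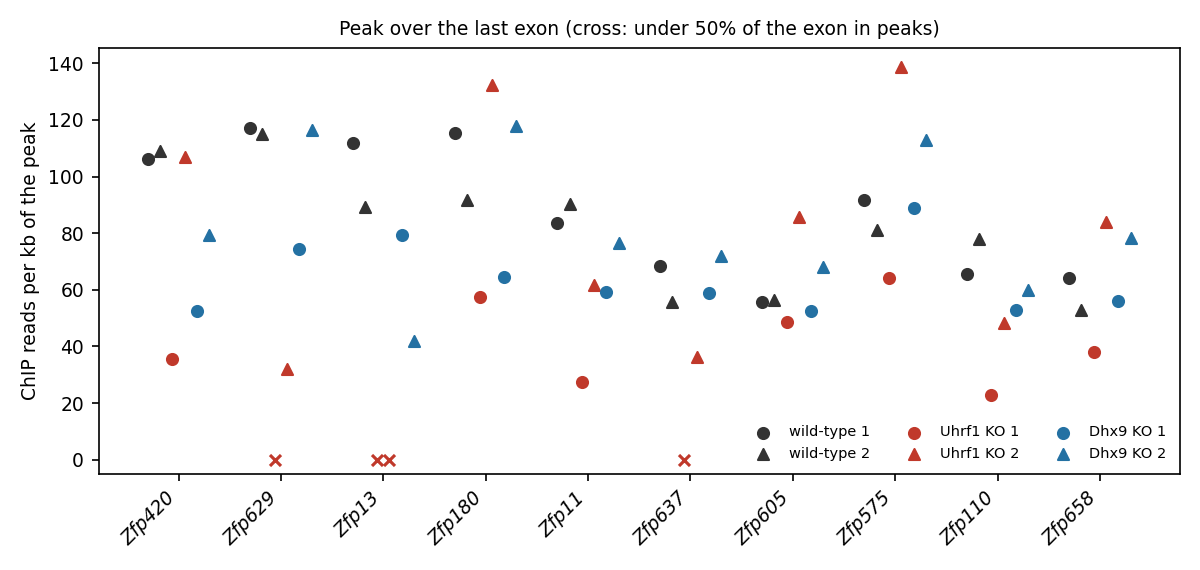
ChIP reads per kb of the peak over the last exon (vertical axis) for the 10 genes with the strongest last exons in wild-type cells, with 1 point per library (circles, library 1; triangles, library 2). Crosses at 0 mark libraries in which under 50% of the exon was in peaks: Zfp629 and Zfp637 in 1 Uhrf1 KO library each and Zfp13 in both.

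The Uhrf1 KO comparison asked which marked last exons were also in the Uhrf1 KO peak lists. Of the 40, 13 (32.5%) were in no Uhrf1 KO list, against 43.7% of the 3447 last exons marked in both wild-type libraries over all genes, 6 were in 1 Uhrf1 KO list and 21 (52.5%) in both, against 19.9% over all genes. These shares moved with the strength of the wild-type peak. Among last exons with a lower wild-type log2 fold of at least 1.5, 1 of 9 zinc finger genes (11.1%) and 22.1% of all genes were in no Uhrf1 KO list. Between 1 and 1.5 the shares were 4 of 17 (23.5%) and 22.9%, between 0.75 and 1 they were 4 of 6 (66.7%) and 37.6%, and below 0.75 they were 4 of 8 (50%) and 65.3%. The shares in both Uhrf1 KO lists were 66.7% against 53.0% of all genes at 1.5 or more and 58.8% against 33.7% between 1 and 1.5. They were 33.3% against 13.8% between 0.75 and 1, and 37.5% against 7.53% below 0.75. With an equal number of peaks per list, the strongest 70195 by log2 fold, 27 last exons were marked in both wild-type lists, of which 6 (22.2%) were in no Uhrf1 KO list and 17 (63.0%) in both, against 37.8% and 33.9% of the 1380 over all genes. Without wild-type library 1 or 2 the 13 became 20 and 26, where a last exon then had to be in a single wild-type list, and without Uhrf1 KO library 1 or 2 they became 14 and 18. With a condition removed, the count can only stay or rise.

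The 13 were Zfp13, Zfp30, Zfp668, Zfp879, Zfp850, Zfp607, Zfp61, Zfp672, Zfp853, Zfp467, Zfp112, Zfp775 and Zfp1, and 6 of them had the KRAB pattern. Their last exons had a median GC content of 52.2% and 63 CpG sites, whereas the 21 kept in both lists had 44.2% and 43 CpG sites, and the median lower wild-type log2 fold was 0.81 against 1.26. Their part in the difference was not tested. Zfp668 had 67.9 and 73.9 reads per kb in wild-type and 51.2 and 63.2 in Dhx9 KO cells, and its window held no Uhrf1 KO peak. Zfp467, a gene whose last exon holds 132 CpG sites, had its whole last exon in a weak peak in wild-type cells with 30.6 and 29.0 reads per kb, and none of it was in a Uhrf1 KO peak. Not every exon of the group was empty, since Zfp850 still had 48% and 30% of its last exon in Uhrf1 KO peaks and Zfp853 had 0% and 47%, and Zfp607 and Zfp61 were partly covered in library 2. Just inside the 50% limit in wild-type cells were Zfp2, with 51% of the exon in each library, and Zfp853, with 52% in library 1.

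The only last exon in both Uhrf1 KO lists and in neither wild-type list was that of Zfp964, 1 of 155 (0.645%), where the share over all 16323 such genes was 0.49%. It had 17% and 30% of its bases in peaks in wild-type, 96% and 100% in Uhrf1 KO and 83% and 100% in Dhx9 KO cells. It lies on chromosome 8, and its Uhrf1 KO peaks had log2 folds of 1.00 and 0.22. Without Uhrf1 KO library 1 or 2 the count was 3 and 8, and without wild-type library 1 or 2 it was 2 each, where fewer conditions can only leave or raise it.

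In Dhx9 KO cells, 6 of the 40 last exons (15.0%) were in neither list, 8 in 1 list and 26 (65.0%) in both. Over all genes the share in neither list was 13.5%, and 55.5% were in both. The 6 were Zfp146, Zfp607, Zfp672, Zfp853, Zfp82 and Zfp1, of which Zfp607, Zfp672, Zfp853 and Zfp1 were also in no Uhrf1 KO list. The whole Zfp146 exon lay in wild-type peaks of 49.9 and 48.1 reads per kb. It was 68% and 88% covered in Uhrf1 KO and was not covered in either Dhx9 KO library. Zfp82 was 89% and 62% covered in wild-type, 100% and 89% in Uhrf1 KO and 0% in both Dhx9 KO libraries. All 9 last exons with a lower wild-type log2 fold of at least 1.5 were in both Dhx9 KO lists, against 81.6% of all genes in that range. Weaker ranges did not all go the same way. Between 1 and 1.5 the shares in both lists were 58.8% against 72.1% of all genes. They were 50% against 62.2% between 0.75 and 1, and 50% against 35.1% below 0.75. The shares in neither Dhx9 KO list were 5.88% against 5.90% between 1 and 1.5. They were 50% against 8.07% between 0.75 and 1, and 25% against 23.4% below 0.75. Of the 155 in neither wild-type list, 2 (1.29%) were in both Dhx9 KO lists, against 0.98% of all genes. These were Zfp964 and Zfp703, a transcriptional repressor gene with 152 CpG sites in its last exon, of which 71% and 57% was in Dhx9 KO peaks of log2 fold 0.36 and 0.56. Both lie on chromosome 8. A library left out removes a condition, so these counts can then only stay or rise. Without Dhx9 KO library 1 or 2 the 6 became 10 each and the 2 became 7 and 6, and without wild-type library 1 or 2 they became 12 each and 3 each.

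In 17 of the 40 genes (42.5%) the last exon was in peaks in all 6 libraries, against 590 of 3447 genes (17.1%). These sets were not matched for strength, since 8 of the 40 but 1395 of the 3447 had a lower wild-type log2 fold below 0.75.

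**Figure D4:**
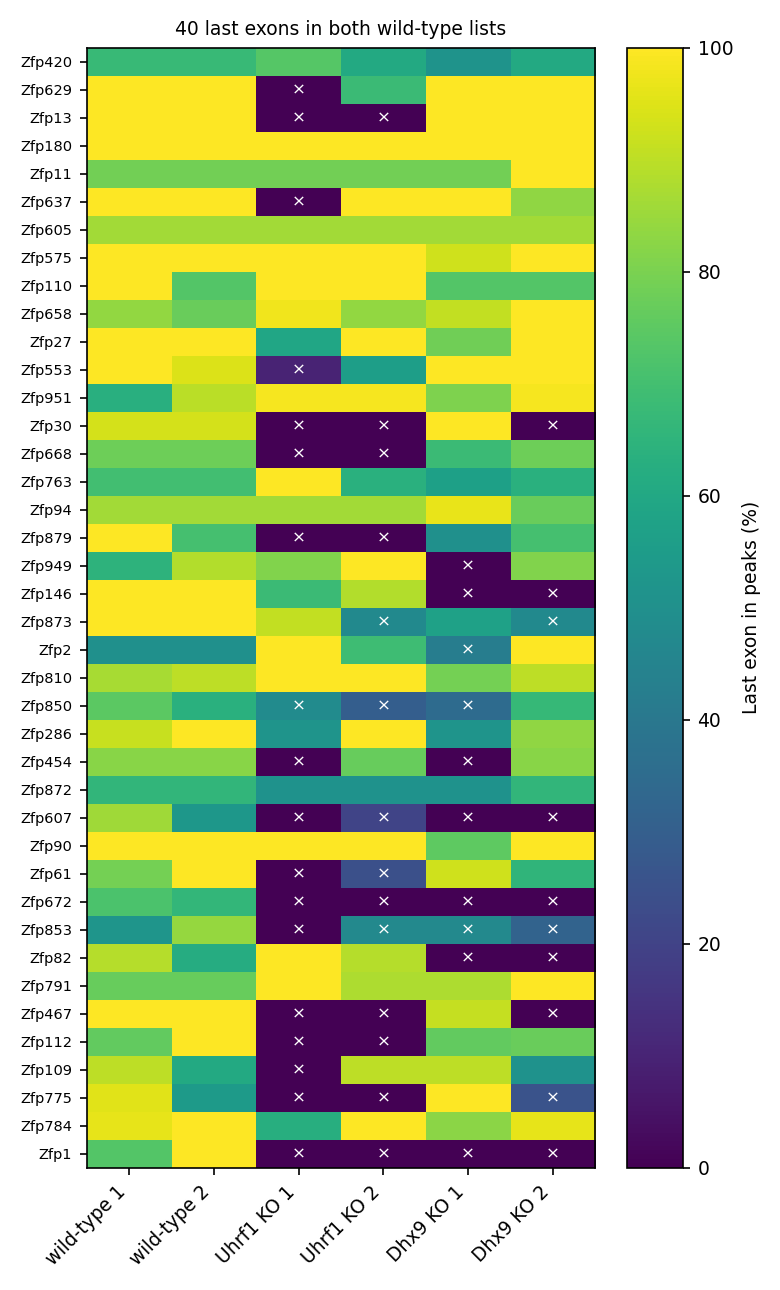
Percent of the last exon in peaks in each library (columns) for the 40 genes marked in both wild-type lists (rows), ordered from the highest to the lowest wild-type log2 fold. Crosses mark values under 50%; they fall in both Uhrf1 KO columns for 13 genes and in both Dhx9 KO columns for 6, mostly in the lower part of the plot.

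Beyond the last exon, the share of the gene window in peaks was compared. In the Uhrf1 KO comparison 178 of the genes had a peak in the window in at least 1 of the 4 libraries. The share was lower in both Uhrf1 KO libraries than in both wild-type libraries for 79 of them (44.4%), where 49.5% of all 15481 such genes were, and higher in both for 23 (12.9%), where 7.78% were. Of the 23 higher genes 21 had the KRAB pattern, and of the 79 lower genes 32 had it, where 101 of the 178 had it in all. With equal numbers of peaks the counts were 30 higher, 25 with the pattern, and 30 lower, 15 with the pattern, of 150 genes with a peak (20.0% each), 94 with the pattern, against 18.0% higher and 23.8% lower over all genes. Without Uhrf1 KO library 1 or 2 the 23 higher became 45 and 36. A library left out removes a condition, so such window counts, here and below, can only stay or rise. In the Dhx9 KO comparison 55 of 186 genes (29.6%) were lower, against 23.7% of all genes, and 23 (12.4%) higher, against 13.5%. Of these 23 higher genes 13 had the KRAB pattern, as did 27 of the 55 lower ones. Without wild-type library 1 the 23 higher became 39, without Dhx9 KO library 1 or 2 they became 50 and 45, and the 55 lower became 88 without wild-type library 2 and 85 without Dhx9 KO library 2.

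The higher genes with the widest gap between the Uhrf1 KO and wild-type libraries, named after their values were seen, were Zfp951, Zfp869, Zfp605, Zfp141 and Zfp81. The Zfp951 window was 39.2% and 43.3% in peaks in wild-type, 65.6% and 65.9% in Uhrf1 KO and 39.3% and 47.4% in Dhx9 KO cells. Zfp869, on chromosome 8, had 45.7% and 64.9% in wild-type, 84.1% and 96.0% in Uhrf1 KO and 31.1% and 48.5% in Dhx9 KO cells. Zfp605 had 25.4% and 23.5%, 43.2% and 46.3%, and 23.5% and 25.4% in the same order. In all 3 the Dhx9 KO libraries overlapped or lay below the wild-type ones.

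The 3 genes with the most called bases in wild-type windows, Zfp536, Zfp423 and Zfp827, lacked the KRAB pattern, and the last 2 lie on chromosome 8. Zfp536, which restrains neuronal differentiation, had 234751 and 222973 bases in peaks in wild-type, 64773 and 191573 in Uhrf1 KO and 198773 and 180751 in Dhx9 KO cells. Zfp423, a neural and adipocyte regulator, had 192000 and 214795 bases in wild-type peaks, 4200 and 24400 in those of Uhrf1 KO and 30400 and 103200 in those of Dhx9 KO cells. Of its window 62.4% and 69.8% was in wild-type peaks, whereas Uhrf1 KO peaks took up 1.36% and 7.93%, although the strongest of its wild-type peaks had log2 folds of only 0.86 and 0.94. Zfp827 had 101800 and 91200 bases, then 22600 and 55168, then 22000 and 48368. The choice by high wild-type values favours lower knockout values. Over all genes with a peak, the window share was lower in both Uhrf1 KO libraries for 49.5% and in both Dhx9 KO libraries for 23.7%. In Zfp536, Zfp423 and Zfp827 both libraries of each knockout were below both wild-type libraries. Zfp316, which has the KRAB pattern, and Zfp467 followed the same order, Zfp316 with 69.7% and 62.4% of the window in wild-type, 0% and 10.6% in Uhrf1 KO and 45.9% and 16.2% in Dhx9 KO cells.

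**Figure D5:**
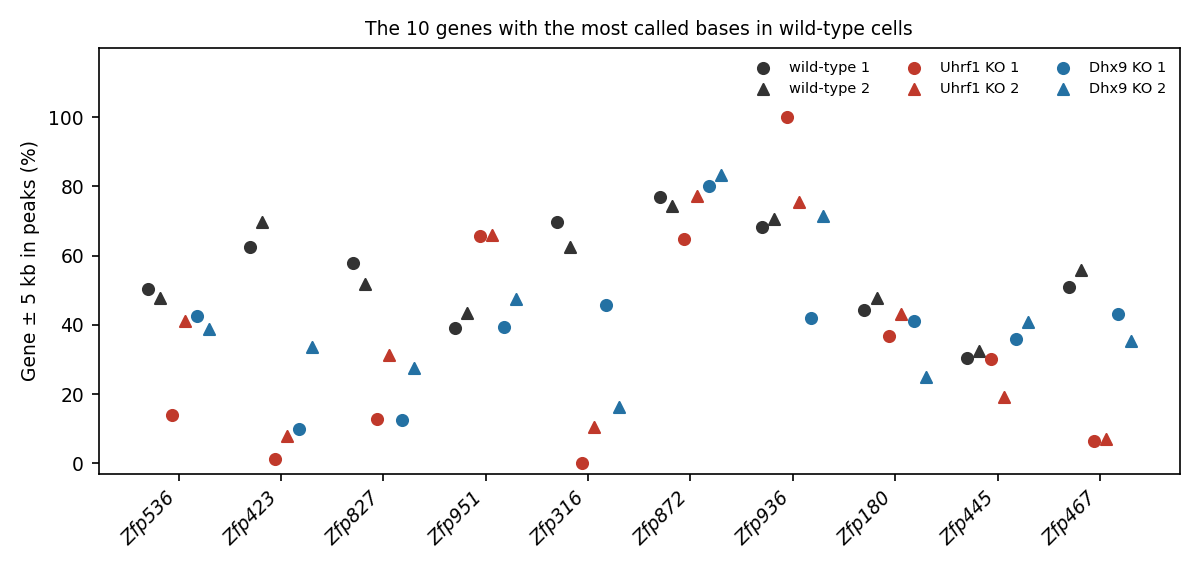
Percent of the gene window in peaks (vertical axis) for the 10 zinc finger genes with the most called bases in wild-type cells, with 1 point per library (circles, library 1; triangles, library 2). Both Uhrf1 KO points are below both wild-type points for Zfp536, Zfp423, Zfp827, Zfp316, Zfp180, Zfp445 and Zfp467. They are above both for Zfp951 and Zfp936.

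The start site lay in a peak in both wild-type libraries in 8 genes, Zfp180, Zfp616, Zfp629, Zfp772, Zfp869, Zfp872, Zfp936 and Zfp951. Both Uhrf1 KO libraries kept it in 5 of these, 1 kept it in a single library and 2, Zfp629 and Zfp951, in none. The same was true of 450 (21.3%), 806 (38.2%) and 852 (40.4%) of 2108 start sites over all genes. Both Dhx9 KO libraries kept it in 4 of the 8 genes (50%), 1 kept it in a single library and 3 (37.5%) in none, against 55.6% in both and 15.4% in none over all genes. A start site kept in all 6 libraries and one covered in wild-type and Dhx9 KO cells only are shown by the RefSeq promoters (GRCm38.p6, 250 bases before to 50 after the start) of Zfp872 (chr9:22187916-22188215, plus strand) and Zfp629 (chr7:127614384-127614683, minus strand), with CpG sites in capitals.
Zfp872: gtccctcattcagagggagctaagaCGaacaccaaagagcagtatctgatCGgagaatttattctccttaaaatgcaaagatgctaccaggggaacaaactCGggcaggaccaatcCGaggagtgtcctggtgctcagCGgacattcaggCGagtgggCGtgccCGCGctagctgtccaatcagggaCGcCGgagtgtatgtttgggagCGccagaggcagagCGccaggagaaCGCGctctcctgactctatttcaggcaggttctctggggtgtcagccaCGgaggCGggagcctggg
Zfp629: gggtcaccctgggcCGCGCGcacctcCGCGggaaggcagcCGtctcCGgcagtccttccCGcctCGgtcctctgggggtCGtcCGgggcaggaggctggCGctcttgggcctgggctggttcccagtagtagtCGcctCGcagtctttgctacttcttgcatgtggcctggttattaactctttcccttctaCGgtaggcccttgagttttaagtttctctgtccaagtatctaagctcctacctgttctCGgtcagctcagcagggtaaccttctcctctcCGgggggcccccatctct
All 300 bases of the Zfp872 promoter were in peaks in every library. The Zfp629 promoter was in peaks over all 300 bases in the wild-type and Dhx9 KO libraries and over 0 bases in both Uhrf1 KO libraries. Each held 17 CpG sites, a number reached by 31.4% of the 32851 RefSeq promoters. The 198 zinc finger genes with a matched promoter had a median of 15.

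Several genes of known function were described whatever their values. Zfp57 and Zfp445, KRAB proteins that protect imprinted loci, differed from each other. Zfp57 had no peak in its window in any list. Zfp445 had 3 peaks in each wild-type and Uhrf1 KO library and 4 and 5 in Dhx9 KO cells, none over the last exon, with 30% and 33% of the window covered in wild-type, 30% and 19% in Uhrf1 KO and 36% and 41% in Dhx9 KO cells. Zfp809, which recruits TRIM28 to proviral primer binding sites, had 2 peaks in each wild-type and Dhx9 KO library and none in Uhrf1 KO cells. Zfp932, a KRAB repressor of endogenous retroviruses, had 20.8% and 15.0% of its window covered in wild-type, 51.5% and 29.8% in Uhrf1 KO and 12.7% and 25.9% in Dhx9 KO cells. Zfp819 had its last exon in a peak in wild-type library 1 only. Zfp42 (Rex1) and Zfp296, both pluripotency markers, had no peak in any list, and neither had Zfp207 and Zfp384. Zfp143, Zfp36, Zfp609, Zfp961 and Zfp568 had no marked last exon in any list, where the limit was 50% of the exon. The share of the Zfp961 window in peaks was higher in both Uhrf1 KO libraries than in both wild-type libraries. That of Zfp609 was lower in both libraries of each knockout, and that of Zfp568 was lower in both Dhx9 KO libraries.

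ChIP read counts were tested over regions that were called in all 4 libraries of a comparison and at least 80% covered in each, with called length as offset. Of the 2535 regions tested for Uhrf1 KO over the genome, 5.52% had lower and 3.23% higher counts by edgeR's quasi-likelihood test at an adjusted p of 0.05. That is 140 lower and 82 higher, a split that moved with the scaling, to 165 and 52 with TMM factors from counts not brought to equal called length and to 94 and 13 with DESeq2. Of the 8 that overlapped windows of these genes, 1 fell and 1 rose. The region that rose overlapped the last exon of Zfp605 (chr5:110127601-110136000), with 412 and 418 reads over 7400 called bases in each wild-type library and 400 and 721 reads over 8200 and 8400 bases in Uhrf1 KO, a log2 difference of 0.55 (SE 0.14, adjusted p = 0.024, edgeR). The region that fell was chr7:37571201-37574800 within Zfp536, with 152 and 180 reads over 3000 bases in each wild-type library and 58 and 150 over 3400 bases in each Uhrf1 KO library, a log2 difference of −0.65 (SE 0.19, adjusted p = 0.049, edgeR). Neither call held with DESeq2 (adjusted p = 0.10 and 0.13) or without either wild-type library, where the adjusted p was 0.24 and 0.14 for Zfp605 and 0.15 and 0.49 for Zfp536. Without Uhrf1 KO library 1 or 2 the log2 difference was 0.61 and 0.74 for Zfp605 and −0.33 and −0.75 for Zfp536. In these fits the spread comes from the wild-type pair alone, so they cannot show whether a call holds. Zfp536 was not called without the length offset either, with a log2 difference of −0.51 and an adjusted p of 0.11 by edgeR. With the shallow Uhrf1 KO library 1 left out, 4598 regions of the genome were called, 14 of them at these genes, in a fit whose spread comes from the wild-type pair alone. For Dhx9 KO, 0.572% of 4721 regions were lower and 0.0424% higher, and of the 18 regions of these genes none was called by edgeR, with 4 at an unadjusted p under 0.05, 1 lower and 3 higher. DESeq2 called none of the 18 either. Where a library is left out, as next, the spread comes from the pair of the other group alone. Without Dhx9 KO library 1 edgeR called 3 zinc finger regions and without library 2 it called 12, and without either wild-type library 0.

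Counts over the whole peaks on last exons, with called length as offset, could be compared for 21 of the genes in Uhrf1 KO and 26 in Dhx9 KO. None was called by edgeR or DESeq2 in either comparison, where 0.292% of 686 genes and 0% of 1914 genes were called by edgeR. At an unadjusted p under 0.05 edgeR gave 1 lower and 4 higher in Uhrf1 KO, and 2 lower and 1 higher in Dhx9 KO cells. The largest Uhrf1 KO differences were in Zfp605, 0.74 (SE 0.16), and Zfp575, 0.67 (SE 0.15), on the log2 scale, each with an adjusted p of 0.11 by edgeR. Because only last exons still in peaks in both knockout libraries enter this test, the 13 that were in no Uhrf1 KO list could not be part of it. Over gene windows of which at least 50% was in peaks in all libraries, 6.9% of 116 genes were called in Uhrf1 KO and 0.141% of 709 in Dhx9 KO cells by edgeR, and 2 zinc finger genes entered each test, Zfp872 and Zfp936 in the first and Zfp629 and Zfp872 in the second. None of these was called or had an unadjusted p under 0.05. For Zfp936 the Uhrf1 KO difference was 0.26 (SE 0.12, adjusted p = 0.19, edgeR), and for Zfp629 the Dhx9 KO difference was −0.33 (SE 0.20, adjusted p = 0.63, edgeR). DESeq2 called neither pair.

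Neighbouring genes were not independent, since 42 and 41 of the 222 shared a peak with another of them in the wild-type lists. The 122 other numbered Zfp genes were all those compared that are not among the 222, so Zfp787 was not left out of them. In 16 of the 122 (13.1%) the last exon was in peaks in both wild-type libraries. Of these 16, 3 were in no Uhrf1 KO list and 2 in no Dhx9 KO list.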

How the data were processed

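H3K9me3 ChIP-seq was described in 6 libraries, 2 biological replicates per genotype, grouped by the labels, and the series' other samples were not analysed here. Per the study's methods and the submitters' processing notes, reads were aligned to mm10 with Bowtie2 2.3.4.3 and peaks were called by the authors in each library with epic2, a form of SICER (0.0.51), against wild-type input as the methods state it, although the background counts show that the Uhrf1 KO lists used another background than the other 4. The deposited lists hold ChIP and background read counts per peak, a p-value and false discovery rate, and a log2 fold over background, which was used to rank and grade peaks and is not comparable between the Uhrf1 KO lists and the others. The coordinates here are 1-based. No read outside a called peak is in these lists, so a missing peak means not called, not absent H3K9me3, and depth limits what was called.

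The genes were taken by name from the deposited annotation, and the members and lists were chosen with earlier results of these data known. Genes were named by a fixed rule: a list of known genes, the 10 strongest last exons in wild-type cells, up to 10 lost and gained last exons, 5 changes per direction past the threshold in each test, and the longest called stretches; other names are said to be chosen afterwards or complete a count. KRAB boxes and fingers were found by pattern in the translated coding sequence. Regions, gene windows (peak reads divided by the share of each peak inside) and, added after seeing the data, peaks over last exons were tested with edgeR 4.0.16 in R 4.3.3 (TMM scaling on counts brought to equal called length, a choice made after first results of the same tests had been seen and compared in the closing section with TMM on the counts as deposited, length offset, low-count filter, Benjamini-Hochberg 0.05 over all features), with DESeq2 1.42.0 as an alternative. The SE is the log2 difference divided by the root of the test's F. The fit was also run on simulated counts that gave every library the same dispersion, which cannot show how it behaves with replicates as unlike as the Uhrf1 KO pair.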

Additional observations from a re-analysis of the deposited data

How the results depend on the processing

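Counts of zinc finger genes from peaks depended on what was taken as a peak. With a false discovery rate of at most 1e-10, 65 genes had a peak in the window in both Uhrf1 KO lists and 66 in both Dhx9 KO lists, 14 and 17 had a marked last exon, and 0 and 1 last exons were in both knockout lists only. With a log2 fold of at least 1, 97 genes had a peak in both wild-type lists and 61 in both Dhx9 KO lists, 26 and 15 had a marked last exon, 6 last exons were in no Uhrf1 KO list, and 0 were in both lists of either knockout only. With equal numbers of peaks, 72 genes had a peak and 16 a marked last exon in Dhx9 KO, 6 last exons were in no Uhrf1 KO list, 2 and 0 were in both Uhrf1 KO and both Dhx9 KO lists only, and 30 windows were lower in Uhrf1 KO. Without chromosome 8 no last exon was in knockout lists only (0 and 0). Without flanks 65 genes had a peak in Uhrf1 KO and 79 in Dhx9 KO, and with 20 kb 162 and 187. With any overlap 64 last exons were marked in wild-type, 20 were in no Uhrf1 KO list and 1 was in Dhx9 KO lists only. Over the finger array, 2 were in Uhrf1 KO and 1 in Dhx9 KO lists only.

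Calls by read counts were given over regions, gene windows and last exons of the whole genome. In Uhrf1 KO, DESeq2 called 107 regions and 5 windows, and equal library sizes called 0 regions, 0 windows and 0 last exons. All 6 libraries in one fit called 51 regions and 5 last exons, no length offset 16 windows and 1 last exon, and 80% coverage 3 windows and 4 last exons. The 2 zinc finger regions became 0 with DESeq2, equal sizes, all 6 libraries and 50% coverage, and without the length offset 2 were called, both higher, so that Zfp536 was not. In Dhx9 KO, DESeq2 called 2 windows and 5 last exons, equal sizes 11 regions, 11 windows and 8 last exons, no offset 14, 0 and 9, and all 6 libraries 9, 3 and 3. TMM on counts not brought to equal length called 0 windows in Dhx9 KO, and 165 regions lower and 52 higher in Uhrf1 KO. Scaling moved the median difference over all features by up to −0.46 with equal library sizes and up to 0.21 with DESeq2 and 0.16 with TMM on the counts as deposited, all on the log2 scale. The cause was not tested.

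Replicate numbers did not pair the samples, since deviations of same-numbered libraries correlated at 0.0653 over 2535 regions for Uhrf1 KO and −0.0697 over 4721 for Dhx9 KO. With the number as a replicate block, 4 windows and 0 last exons were called in Uhrf1 KO, and 81 regions, 1 of them at a zinc finger gene, and 2 windows in Dhx9 KO.

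With each library left out in turn, and the lone library assumed to vary like the others, genes with a peak ranged over 160 to 165 in wild-type, 103 to 125 in Uhrf1 KO and 141 to 143 in Dhx9 KO, and marked last exons over 50 to 57, 33 to 35 and 44 to 46. Fewer conditions then apply, so these counts and the following ones of last exons and windows in peaks could only stay or rise. Last exons absent from the knockout ranged over 14 to 26 in Uhrf1 KO and 10 to 12 in Dhx9 KO, those in the knockout only over 2 to 8 and 3 to 7, higher windows over 26 to 45 and 33 to 50, and lower windows over 86 to 102 and 70 to 88. Calls in Uhrf1 KO ranged over 56 to 4598 regions (0 to 14 at zinc finger genes), 0 to 252 windows (0 to 2) and 1 to 60 last exons (0 to 4). In Dhx9 KO they ranged over 15 to 1897 regions (0 to 12), 0 to 181 windows (0 to 1) and 0 to 9 last exons.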
